A study of Mus musculus with 4 samples.

Results

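The genes described here are 10 genes of germ cells and testis, measured by RNA sequencing in mouse TBV2 cells, an embryonic stem (ES) cell line. They were chosen by name: the germ-line RNA helicase Ddx4, the RNA-binding protein gene Dazl, the piRNA pathway genes Piwil2, Mael, Asz1 and Tdrkh, the testis transcription factor gene Taf7l, the testis ADP/ATP carrier gene Slc25a31, and the testis alpha-tubulin genes Tuba3a and Tuba3b. All 10 were found among the 27542 genes and loci of the authors' deposited table, each in 1 row with no other symbol, and all 10 were among the 15477 rows that the authors tested. The 4 libraries were 3 from separate clones with a knockdown of the long noncoding RNA T-UCstem1 (KD), and 1 from a non-targeting control (NT). Both groups were TBV2 ES cells cultured with serum and LIF, and the series' design text adds feeder cells and high density. How the knockdown was made and how far it went is not stated in the labels, and the level of T-UCstem1 was not analysed here. The authors combined the 3 clones into 1 FPKM (fragments per kilobase of transcript, corrected for the size of the library) per gene and gave 1 FPKM for the control, so values have no SD or n. Below, a gene is said to have risen or fallen only where the authors marked it in their Cuffdiff comparison (largest q among marked rows, 0.0478). With 1 control library that comparison holds no measured spread between control cultures.

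Germ cells keep their transposons silent with piRNAs, small RNAs of about the length of a microRNA or a little longer that are bound by PIWI proteins of the Argonaute family. In the male germ line these proteins work in the nuage, a granule beside mitochondria that also holds the helicase DDX4, Tudor-domain proteins, MAEL and ASZ1. In mouse ES cells many of these genes are kept low by methylation of CpG-rich promoters and by the PRC1.6 complex, a Polycomb assembly whose subunits MGA and MAX recognise the E-box and whose subunit E2F6 recognises E2F-type sites.

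Because the promoters of such genes are where these silencers are known to act, the promoter windows that hold an E-box or an E2F-type motif are shown first. RefSeq promoter windows (build GRCm38.p6, from 250 bases before to 50 bases after the annotated start) were found for 9 of the 10 genes; Piwil2 had no entry. Each sequence below is the 250 bases before the start, 5′ to 3′ on the gene's own strand, and capitals mark the E-box CACGTG or the E2F-type motif GGCGGGAA, which reads TTCCCGCC where it lies on the other strand. The strand, build and position of each window are given on its line.
Ddx4 (GRCm38.p6, chr13:112652311-112652560, minus strand): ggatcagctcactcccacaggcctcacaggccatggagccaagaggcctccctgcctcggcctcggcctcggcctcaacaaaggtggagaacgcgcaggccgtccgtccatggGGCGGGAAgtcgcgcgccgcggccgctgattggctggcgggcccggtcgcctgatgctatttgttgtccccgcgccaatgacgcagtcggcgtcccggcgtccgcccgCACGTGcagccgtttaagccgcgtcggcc
Taf7l (GRCm38.p6, chrX:134476491-134476740, minus strand): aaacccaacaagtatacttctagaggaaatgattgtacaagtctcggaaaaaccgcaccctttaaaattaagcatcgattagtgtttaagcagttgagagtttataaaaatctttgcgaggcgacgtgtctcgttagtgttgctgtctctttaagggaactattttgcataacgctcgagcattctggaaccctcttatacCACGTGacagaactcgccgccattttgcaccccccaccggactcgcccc
Mael (GRCm38.p6, chr1:166238745-166238994, minus strand): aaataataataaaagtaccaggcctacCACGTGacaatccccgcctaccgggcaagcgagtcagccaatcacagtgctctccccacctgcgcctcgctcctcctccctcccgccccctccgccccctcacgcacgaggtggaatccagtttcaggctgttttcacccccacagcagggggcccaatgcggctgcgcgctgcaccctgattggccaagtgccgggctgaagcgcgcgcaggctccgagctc
Slc25a31 (GRCm38.p6, chr3:40708621-40708870, plus strand): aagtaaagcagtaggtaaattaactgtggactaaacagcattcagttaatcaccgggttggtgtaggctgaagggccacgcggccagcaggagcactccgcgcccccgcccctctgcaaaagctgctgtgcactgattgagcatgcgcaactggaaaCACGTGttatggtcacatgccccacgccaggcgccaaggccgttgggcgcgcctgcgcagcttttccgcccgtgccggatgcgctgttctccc
Tuba3a (GRCm38.p6, chr6:125286082-125286331, minus strand): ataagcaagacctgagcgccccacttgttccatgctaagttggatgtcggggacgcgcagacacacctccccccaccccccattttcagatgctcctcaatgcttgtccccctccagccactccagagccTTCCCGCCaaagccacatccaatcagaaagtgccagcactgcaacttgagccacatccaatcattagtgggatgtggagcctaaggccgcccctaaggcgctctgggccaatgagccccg
Tuba3b (GRCm38.p6, chr6:145615713-145615962, plus strand): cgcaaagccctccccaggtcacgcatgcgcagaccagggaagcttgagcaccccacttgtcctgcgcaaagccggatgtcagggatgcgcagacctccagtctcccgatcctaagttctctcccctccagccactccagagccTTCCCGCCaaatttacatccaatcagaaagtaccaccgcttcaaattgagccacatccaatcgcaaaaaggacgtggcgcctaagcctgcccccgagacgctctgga

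The E-box was present in 4 of the 9 windows, those of Ddx4, Taf7l, Mael and Slc25a31, against 7.15% of the 32851 RefSeq promoter windows of the same length. Searched on both strands, the E2F-type motif was present in 4 windows as well, those of Ddx4, Slc25a31, Tuba3a and Tuba3b, against 2.19% of all windows. Ddx4 and Slc25a31 held both, as did 0.213% of all windows. Counted from the annotated start, the E-box began at -29 in Ddx4, at -49 in Taf7l, at -93 in Slc25a31 and at -223 in Mael. The E2F-type motif began at -137 in Ddx4, at -120 in Tuba3a and at -107 in Tuba3b, and at 20 after the start in Slc25a31, outside the printed stretch. Another motif, GCGCGAAA, on either strand, was in none of the 9 windows and in 0.323% of all windows. Windows of Dazl, Asz1 and Tdrkh held none of the 3. These are matches of letters in 1 window per gene, and binding was not measured. The E-box and the E2F-type motif each contain a CpG, and these windows were richer in CpG than most, as described below. No share over windows of like CpG content was computed, so the part of CpG content in these counts was not tested.

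**Figure D1:**
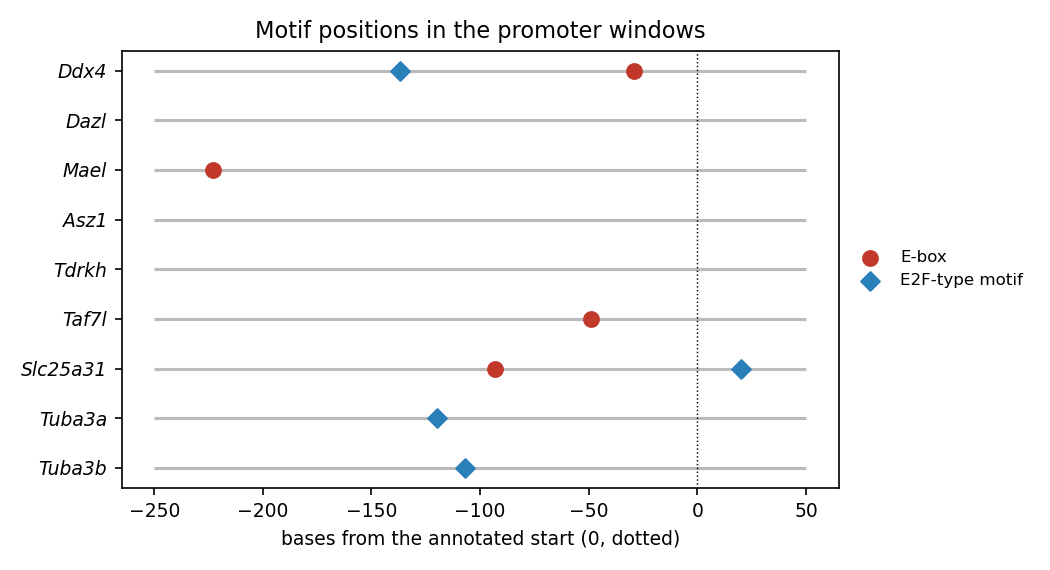
Positions of the E-box (circles) and the E2F-type motif (diamonds) in the promoter windows of 9 genes, in bases from the annotated start. Motifs were present in 6 genes, and Ddx4 and Slc25a31 held both.

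The windows were also rich in CpG. The ratio of observed to expected CpG had a median of 0.80 over the 9 windows, against 0.38 over all RefSeq windows. It was 1.03 in Taf7l, 0.98 in Ddx4, 0.96 in Tdrkh, 0.83 in Slc25a31 and 0.80 in Dazl, and 0.78 in both Mael and Asz1. The tubulin promoters were the lowest of the set, at 0.68 in Tuba3b and 0.47 in Tuba3a. Methylation was not measured in this series.

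The question was how these genes differ between ES cells with and without the knockdown. Of the 10 genes 9 had a higher FPKM in KD cells and 1, Tuba3a, a lower one. Ddx4 and Taf7l rose and Tuba3a fell in the authors' deposited table, and the other 7 were not called. The 2 rises of 10 stand beside a background of 0.963% of all tested rows marked higher in KD cells, and the 1 fall beside 0.187% marked lower. At a deposited q under 0.1, Dazl and Mael joined them, making 4 of 10 higher against 1.40% of all tested rows, and Tuba3a remained the 1 lower gene against 0.304%. At a deposited p under 0.05 it was 6 of 10 higher, with Tuba3b and Asz1, against 6.10%, and again 1 lower against 2.78%. The genes were proposed with earlier results of these data known, so these shares describe them and are no test of the set. The median log2((KD FPKM + 1)/(NT FPKM + 1)), called the log2 fold from here on, was 0.76 over the 10 genes, against 0.023 over the 12158 named genes with at least 1 FPKM in either condition. In such bulk libraries more cells that express a gene and more of its RNA per cell cannot be told apart.

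**Figure D2:**
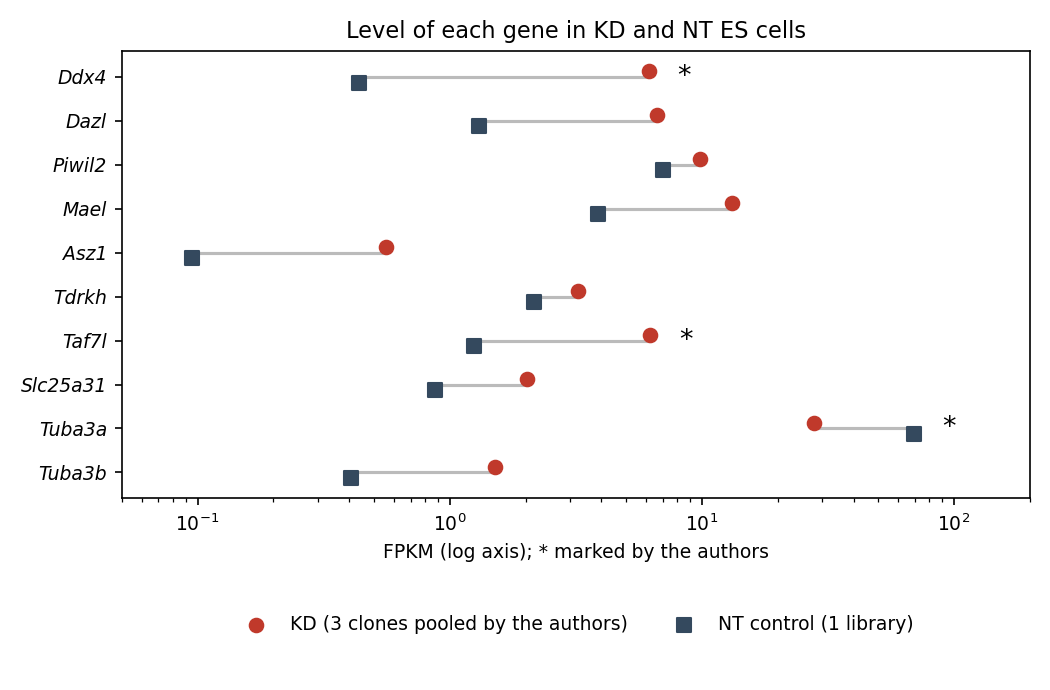
FPKM of each gene on a log axis in KD cells (circles, 3 clones pooled by the authors) and in the NT control (squares, 1 library), with stars on the genes marked by the authors. Ddx4, at 6.16 in KD cells against 0.436 in the NT control, has the widest gap, and Tuba3a is the gene whose KD value lies below the control.

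Ddx4 encodes the mouse VASA helicase, an ATP-dependent RNA helicase of the nuage (chromosome 13, 113388528 to 113442587 in build mm9). It stood at 6.16 FPKM in KD cells and at 0.436 FPKM in the NT control, 14.1 times higher. The log2 fold was 2.32, and the authors' deposited table gave a p of 5e-05 and a q of 0.00815. That p is the smallest in the table and is shared by 95 tested rows. Of the 12158 expressed genes 99.5% had a lower log2 fold, while the KD level of Ddx4 was above that of 33.2% of them. Among 1099 genes with low control values, FPKM multiplied by transcript length in kb was most often 0.033. If this is the worth of 1 fragment, the control value of Ddx4 rests on about 40 fragments.

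Dazl, an RNA-binding protein of germ cells that promotes translation of its targets (chromosome 17, 50418717 to 50432945), was at 6.64 FPKM in KD cells and at 1.31 FPKM in the NT control. Its log2 fold was 1.72, close to that of Taf7l, but it was not marked (q = 0.0524 in the authors' deposited table). In the KD its level was close to that of Ddx4, while in the control it was the higher of the pair.

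Among the piRNA pathway genes, Piwil2 (chromosome 14, 70772071 to 70829244) encodes MILI, a PIWI protein that cuts transposon RNA. It had 9.87 FPKM in KD cells and 6.99 FPKM in the NT control, the highest control level of the 10 genes after Tuba3a. The log2 fold of 0.44 was not called (q = 0.732 in the authors' deposited table). The PIWI gene itself was expressed in both conditions, at levels 1.41 times apart.

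Mael, or maelstrom, a nuage protein needed for transposon silencing (chromosome 1, 168131515 to 168168875), was at 13.2 FPKM in KD cells and at 3.89 FPKM in the NT control. It was the most abundant of the 8 genes other than the tubulins in KD cells. Its log2 fold was 1.54 (q = 0.0941 in the authors' deposited table), and it was not called.

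Asz1 encodes GASZ, a protein that anchors the nuage to mitochondria (chromosome 6, 18000963 to 18059063). It had the lowest level in either condition, at 0.557 FPKM in KD cells and 0.0953 FPKM in the NT control, which corresponds to about 5 fragments in the control by the same estimate. Asz1 was the 1 gene of the 10 that stayed under 1 FPKM in both. The ratio of the values was 5.85, while the log2 fold with a pseudocount of 1 was 0.51, and the authors' deposited table gave a q of 0.483.

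Tdrkh, a Tudor and KH domain protein of mitochondria that helps trim piRNAs to length (chromosome 3, 94217172 to 94236429), was at 3.22 FPKM in KD cells and at 2.16 FPKM in the NT control. Its log2 fold of 0.42 was the smallest among the 9 genes that were higher in KD cells (q = 0.999 in the authors' deposited table). Across the piRNA genes of the set, ratios of KD to control ran from 1.41 in Piwil2 and 1.49 in Tdrkh to 3.40 in Mael and 5.85 in Asz1, and none of these 4 was called.

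Taf7l, a testis paralog of the TFIID subunit TAF7 (chromosome X, 130994562 to 131011060), rose to 6.25 FPKM in KD cells, against 1.25 FPKM in the NT control. The log2 fold was 1.69 and the q 0.0385 in the authors' deposited table. Taf7, its widely expressed paralog, was at 37.0 FPKM in KD cells and at 36.3 FPKM in the NT control, with a log2 fold of 0.03. In the list of 22 TFIID and TAF genes none of 21 tested was called, and the median log2 fold was 0.04. At an unadjusted p under 0.05, 1 was higher and none lower, beside 6.10% and 2.78% of all tested rows. The most abundant of that list, Taf15 and Taf9 (a row shared with Ak6), had 184 and 142 FPKM in KD cells, against 129 and 126 FPKM in the NT control.

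Slc25a31, which encodes the testis ADP/ATP carrier AAC4 of the mitochondrial inner membrane (chromosome 3, 40512792 to 40530016), was at 2.03 FPKM in KD cells and at 0.877 FPKM in the NT control. The log2 fold of 0.69 was not called (q = 0.654 in the authors' deposited table). The somatic carriers were far more abundant in both conditions. Slc25a4 had 118 FPKM in KD cells and 97.9 FPKM in the NT control, and Slc25a5 had 338 FPKM in KD cells and 385 FPKM in the NT control, neither of them called.

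**Figure D3:**
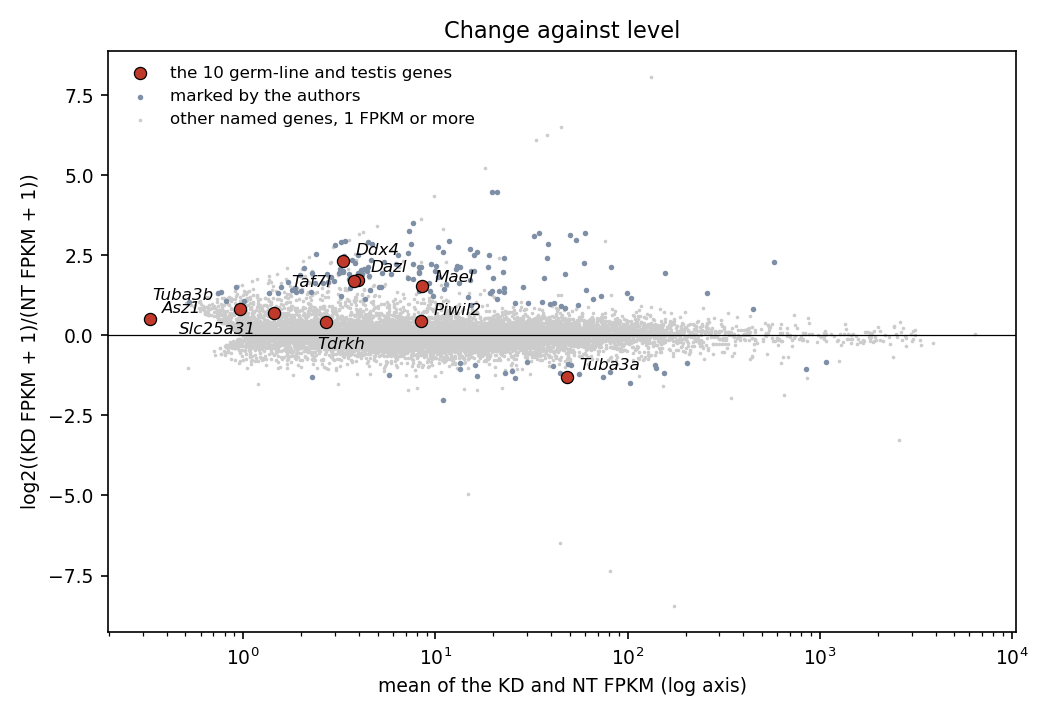
Log2 fold against the mean of the KD and NT FPKM (log axis) for named genes with at least 1 FPKM in either condition (grey), genes marked by the authors (blue) and the 10 genes (red; Asz1 lies below 1 FPKM in both conditions). Ddx4, Dazl, Taf7l and Mael lie between 1.54 and 2.32, and Tuba3a, the most abundant of the 10, lies at -1.29.

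Tuba3a and Tuba3b encode the testis alpha-tubulin, and their values differed in opposite directions. Tuba3a (chromosome 6, 125228291 to 125236060) fell to 27.8 FPKM in KD cells, against 69.2 FPKM in the NT control, with a log2 fold of -1.29 (q = 0.00815 in the authors' deposited table). Tuba3b (chromosome 6, 145564482 to 145569997) was at 1.51 FPKM in KD cells and at 0.407 FPKM in the NT control, with a log2 fold of 0.83 (q = 0.494 in the authors' deposited table). Tuba3a was the most abundant gene of the set in both conditions, and its control level was above that of 90.6% of expressed genes. Tuba3b made up 5.14% of the summed FPKM of both genes in KD cells and 0.585% in the NT control, where its value rests on about 22 fragments. Together they had 29.3 FPKM in KD cells and 69.6 FPKM in the NT control.

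How well reads can separate the pair bears on these values. In GENCODE transcripts (build GRCm38) the longest open reading frames of Tuba3a and Tuba3b were both 1353 bases long and differed at 41 positions, an identity of 97.0%, with a longest identical run of 155 bases. Of the 1460 stretches of 50 bases in the Tuba3a transcript, 32.4% also occurred without a difference in that of Tuba3b. The same count was 0 against Tuba1a, Tuba1b, Tuba1c and Tuba4a and 4 against Tuba8. The read length and the treatment of reads with several matches are not stated, so the split between the pair is uncertain. The 60 bases with the most differences, coding positions 313 to 372 on the sense strand counted from the start codon, are shown with the 9 differing letters in capitals.
Tuba3a: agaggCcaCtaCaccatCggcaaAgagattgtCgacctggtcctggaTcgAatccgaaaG
Tuba3b: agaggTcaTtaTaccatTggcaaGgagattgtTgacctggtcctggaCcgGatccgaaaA

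No other alpha-tubulin gene was called. Tuba1a and Tuba1b, joined in 1 row of the table, had 580 FPKM in KD cells and 615 FPKM in the NT control, and Tuba1c had 156 FPKM in KD cells and 157 FPKM in the NT control. Tuba4a was at 31.3 FPKM in KD cells and at 63.0 FPKM in the NT control, a log2 fold of -0.99 that was not called (q = 0.0932 in the authors' deposited table). Tuba8 was near 0 in both, at 0.157 FPKM in KD cells and 0.0802 FPKM in the NT control. Tuba4a lies on chromosome 1. In the order of the authors' loci, the expressed genes before it, Atg9a and Glb1l, each had a log2 fold of -0.67. After it came Ptprn at 0.12 and Dnpep at -0.67. That order does not follow position throughout, so genes nearer to Tuba4a can be missing here. Whether the change of Tuba3a differs from that of Tuba4a was not tested, nor was the part of the surrounding genes in the value of Tuba4a.

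The 10 genes lie on 7 chromosomes, with 3 of them on chromosome 6 and 2 on chromosome 3. Genes of chromosome 6 were higher in KD cells in general, with a median log2 fold of 0.26 over 563 expressed genes. The medians of the other chromosomes that carry these genes lay between -0.01 and 0.11. A median over a whole chromosome does not show how stretches of it differ. Chromosome 1, which carries Mael, had a median of 0.01. The expressed genes listed beside Mael in the order of the authors' loci, Dusp27 and Pogk, had 0.94 and 0.67. Dusp27 was marked by the authors as higher in KD cells, and Pogk was not marked. That order does not follow position throughout, and the nearest tested rows are given below. Relative to the median of its chromosome, the log2 fold was 0.24 for Asz1, 0.57 for Tuba3b and -1.55 for Tuba3a. It was 2.33 for Ddx4 and 1.58 for Taf7l, whose X chromosome had the median of 0.11. Whether the dose of chromosome 6 differs between the clones and the control was not tested.

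The nearest tested rows on either side of the 10 genes gave no call among 20, with a median log2 fold of 0.48 and a range of -0.53 to 2.30. Ddx4 stood apart from its neighbours in value: Il6st, 89.1 kb away, had a log2 fold of -0.11 and Slc38a9, 8.33 kb away, one of 0.08. Around Taf7l, Drp2 at 3.24 kb and Timm8a1 at 60.7 kb had log2 folds of 0.33 and 0.37, and around Mael, Gpa33 and Ildr2 had 0.51 and 0.47. Rftn1 and Plcl2, the neighbours of Dazl at 88.8 and 216 kb, had 0.69 and 0.76. Both neighbours of Tuba3a were higher in KD cells in value, with a log2 fold of 0.92 for Ltbr and 2.30 for a row shared by Cd27 and Tapbpl (q = 0.972 in the authors' deposited table). For Asz1 the neighbours St7 and Lsm8, at 0.65 and 0.60, were above its own 0.51.

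**Figure D4:**
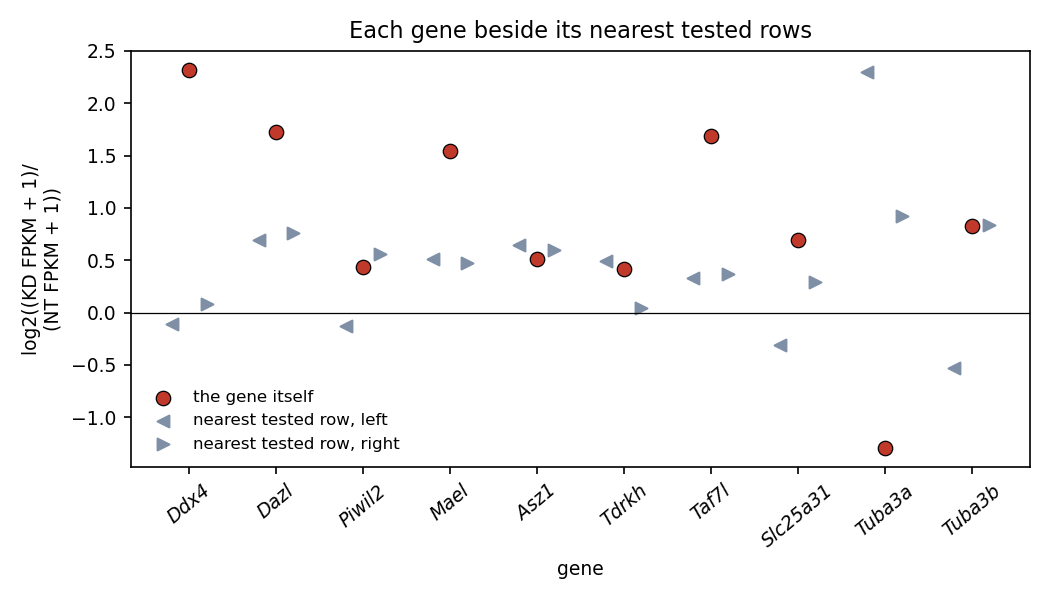
Log2 fold of each gene (circles) and of the nearest tested row to its left and right on the chromosome (triangles, by mm9 position). Ddx4, Dazl, Mael, Taf7l and Slc25a31 lie above both neighbours, and Tuba3a lies below both.

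None of the 28 tested piRNA pathway genes outside the set was called by Cuffdiff. Of these, 5 were higher and 3 lower at an unadjusted p under 0.05, and the median log2 fold of all 30 was 0.12. The shares of all tested rows at that p were 6.10% higher and 2.78% lower. Mov10l1, a helicase that binds piRNA precursors, was at 2.61 FPKM in KD cells and at 0.771 FPKM in the NT control (log2 fold 1.03), and Fkbp6, a chaperone partner of PIWI proteins, was at 3.23 FPKM in KD cells and at 1.11 FPKM in the NT control. Stk31, a protein with Tudor and kinase domains, had 10.2 FPKM in KD cells and 5.15 FPKM in the NT control. In the other direction lay Gpat2, a mitochondrial protein needed for piRNA production, at 10.2 FPKM in KD cells and 17.9 FPKM in the NT control, and Rnf17, a Tudor-domain protein, at 28.4 FPKM in KD cells and 41.3 FPKM in the NT control. The other PIWI genes were low: Piwil1 had 0.786 FPKM in KD cells and 1.23 FPKM in the NT control, and Piwil4 had 2.76 FPKM in KD cells and 2.33 FPKM in the NT control. Prmt5, whose methyl marks on PIWI proteins are read by Tudor domains, was at 71.1 FPKM in KD cells and at 68.0 FPKM in the NT control, and the chaperone gene Hsp90aa1 at 1285 FPKM in KD cells and 1251 FPKM in the NT control.

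Further germ-cell RNA-binding and nuage genes showed no call among 17 tested, with a median log2 fold of 0.04. At an unadjusted p under 0.05, 2 were higher and none lower, beside 6.10% and 2.78% of all tested rows. D1Pas1, a testis copy of the DDX3 helicase gene, was at 8.42 FPKM in KD cells and at 3.53 FPKM in the NT control, a log2 fold of 1.06 (q = 0.167 in the authors' deposited table). The abundant RNA-binding genes Lin28a and Celf1 had 69.6 and 64.8 FPKM in KD cells, against 67.6 and 71.7 FPKM in the NT control. Boll, the closest relative of Dazl, was at 3.74 FPKM in KD cells and at 2.93 FPKM in the NT control. Among housekeeping and somatic paralogs of the 10 genes 1 of 19 tested rose, beside 0.963% of all tested rows. It was Ddx3y, a Y-linked helicase gene, at 14.8 FPKM in KD cells and 0.386 FPKM in the NT control. The 3 expressed genes of the Y chromosome had a median log2 fold of 3.51, which is also the log2 fold of Ddx3y, and whether the dose of that chromosome differs between the clones and the control was not tested. The median log2 fold of the paralog list was 0.01, and the abundant helicase gene Ddx5 had 418 FPKM in KD cells and 412 FPKM in the NT control.

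Meiosis and testis genes gave 4 further rises. Of all tested rows, 0.963% were marked higher in KD cells and 0.187% lower. The median log2 fold over the named genes with at least 1 FPKM in either condition was 0.023. Of 22 tested meiosis genes 2 rose, none fell and 20 did not pass, with a median log2 fold of 0.09. The 2 were Stra8, a retinoic acid target of premeiotic germ cells that lies on chromosome 6, at 88.9 FPKM in KD cells and 32.3 FPKM in the NT control, and Syce1, a synaptonemal complex gene, at 14.0 FPKM in KD cells and 0.581 FPKM in the NT control. Syce2 and Stag3, the most abundant genes of the list without a call, had 32.7 and 30.0 FPKM in KD cells, against 27.4 and 33.7 FPKM in the NT control. Of 27 tested testis and spermatid genes 2 rose, none fell and 25 did not pass, with a median log2 fold of 0.06. Rpl10l, a testis ribosomal protein gene, was at 27.2 FPKM in KD cells and 3.29 FPKM in the NT control, and Tex13, an X-linked testis gene like Taf7l, at 8.93 FPKM in KD cells and 0.376 FPKM in the NT control. Zfp42, listed there for its testis expression, and Odf2 had 572 and 84.2 FPKM in KD cells, against 511 and 71.8 FPKM in the NT control.

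**Figure D5:**
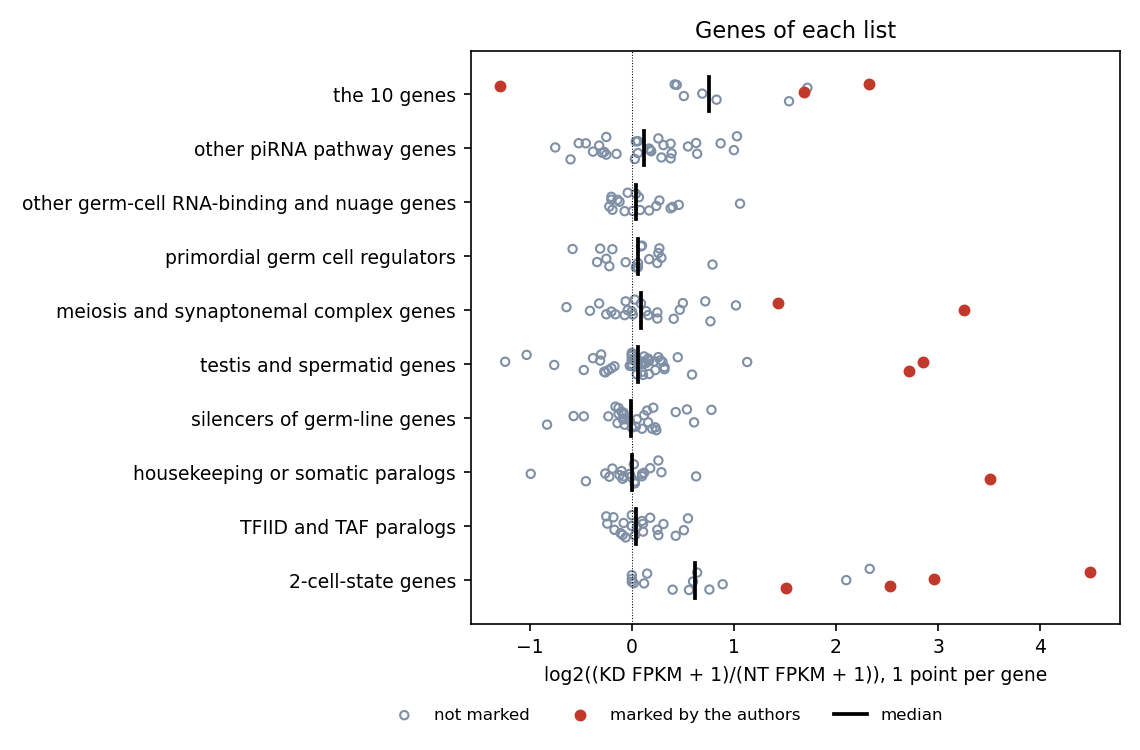
Log2 fold of every gene found in each list (open circles not marked, red circles marked by the authors) with the list median as a bar. The median is 0.76 for the 10 genes and 0.62 for the 2-cell-state genes, and lies between -0.01 and 0.12 for the other 8 lists.

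Regulators of primordial germ cells, the embryonic founders of the germ line, were not called. None of 17 tested passed by Cuffdiff, and the median log2 fold was 0.06. At an unadjusted p under 0.05, 1 was higher and none lower, beside 6.10% and 2.78% of all tested rows. Prdm1, a repressor that specifies these cells, was at 2.56 FPKM in KD cells and at 4.31 FPKM in the NT control, Prdm14 at 18.9 FPKM in KD cells and 23.6 FPKM in the NT control, and Nanos3 at 0.710 FPKM in KD cells and 0.995 FPKM in the NT control. The genes of this list with the highest levels, Pou5f1 and Dppa5a (a row shared with Ooep), are also ES cell genes and had 1078 and 2721 FPKM in KD cells, against 1036 and 2552 FPKM in the NT control.

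Genes of a list drawn up around the known silencers were expressed in both conditions. The list also held Tet1, Tet2 and Zbtb7a, which are not taken here as established silencers of germ-line genes. Of 30 tested none was called by Cuffdiff, and the median log2 fold was -0.01. At an unadjusted p under 0.05, 1 was higher and 3 were lower, beside 6.10% and 2.78% of all tested rows. Among the PRC1.6 subunit genes, Mga was at 45.9 FPKM in KD cells and 48.5 FPKM in the NT control, Max at 51.9 FPKM in KD cells and 55.6 FPKM in the NT control, L3mbtl2 at 46.3 FPKM in KD cells and 49.5 FPKM in the NT control, and Pcgf6 at 31.2 FPKM in KD cells and 28.9 FPKM in the NT control. The log2 folds of these 4 lay between -0.10 and 0.10. E2f6 was at 16.2 FPKM in KD cells and at 10.8 FPKM in the NT control, with a log2 fold of 0.54 (q = 0.673 in the authors' deposited table). Yaf2, another subunit gene, was at 6.23 FPKM in KD cells and at 3.20 FPKM in the NT control, with a log2 fold of 0.78 (q = 0.582 in the authors' deposited table). Dnmt1, the maintenance DNA methyltransferase gene, had 58.6 FPKM in KD cells and 56.9 FPKM in the NT control. Its partner Uhrf1 was at 91.1 FPKM in KD cells and 126 FPKM in the NT control (q = 0.487 in the authors' deposited table). The de novo methyltransferase genes Dnmt3a and Dnmt3b had 9.40 and 25.6 FPKM in KD cells, against 6.70 and 16.5 FPKM in the NT control, and Dnmt3b was the gene that was higher at an unadjusted p under 0.05 (q = 0.303 in the authors' deposited table). Dnmt3l and Trim28, the most abundant of the list by the mean of both conditions, had 168 and 405 FPKM in KD cells, against 250 and 454 FPKM in the NT control. The 3 genes that were lower at an unadjusted p under 0.05 were Uhrf1, Dnmt3l and Zbtb7a, a zinc-finger gene whose log2 fold was -0.83 and whose q in the authors' deposited table was 0.0912. Dnmt3l, with a log2 fold of -0.57, and Zbtb7a lie on chromosome 10, whose median was -0.16 over 591 expressed genes. In the order of the authors' loci, 1810043G02Rik and Icosl beside Dnmt3l had -0.79 and -0.57. Map2k2 and Eef2 beside Zbtb7a had -0.12 and -0.79. The part of the surrounding genes in the values of Dnmt3l and Zbtb7a was not tested. With a single control library these values do not show that the silencers were alike, and protein was not measured.

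Markers of other cells were read beside these results. Of all tested rows, 0.963% were marked higher in KD cells and 0.187% lower, and 6.10% were higher at an unadjusted p under 0.05. The ES cell markers, 10 genes with no call, summed to 6248 FPKM in KD cells and 6010 FPKM in the NT control. Primitive and parietal endoderm markers rose in 11 of 12 tested, with sums of 694 FPKM in KD cells and 125 FPKM in the NT control, and feeder fibroblast markers in 4 of 11 tested, with sums of 104 FPKM in KD cells and 28.1 FPKM in the NT control. The 4 fibroblast genes were Ccl2, Tnc, Fbln2 and Bgn, at 36.5, 16.3, 14.3 and 13.3 FPKM in KD cells, against 8.60, 2.66, 2.48 and 2.05 FPKM in the NT control. The most abundant without a call, Thy1 and Pdgfrb, had 7.06 and 2.57 FPKM in KD cells, against 5.08 and 2.73 FPKM in the NT control. At an unadjusted p under 0.05, 8 of the 11 tested were higher. The fibroblast marker Lum was listed at 0 in both, and Col3a1, Postn and Fap, all under 1 FPKM, were not tested. Of the 2-cell-state genes 4 of 13 tested rose, and the list had sums of 234 FPKM in KD cells and 155 FPKM in the NT control, with Tcstv1, Tcstv3 and Gm4340 listed at 0 in both. The 4 were Zscan4c, Zscan4e and Zscan4f, each listed at 0 in the control, and Dppa2, and the 2 most abundant without a call were Eif1a and Dppa4, at 102 and 69.1 FPKM in KD cells against 91.2 and 63.4 FPKM in the NT control. Defining germ-cell markers, which include Ddx4, Dazl, Mael and Piwil2 themselves, rose in 2 of 9 tested, and Nanos2 was at 0.181 FPKM in KD cells and listed at 0 in the NT control. The list summed to 141 FPKM in KD cells and 56.4 FPKM in the NT control, and Stra8 alone gave 88.9 FPKM of the KD sum. None of 6 tested markers of Sertoli and Leydig cells was called, 1 being higher at an unadjusted p under 0.05, with sums of 45.0 FPKM in KD cells and 46.8 FPKM in the NT control. The part of these other cell states in the values of the 10 genes was not tested.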

How the data were processed

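Libraries were made from total RNA extracted with TRIzol, per the labels' protocols, and the submitters' processing notes name TopHat, Cufflinks and Cuffdiff with build mm9; versions, annotation and scaling are not stated there. The authors deposited 1 FPKM per row for the treated condition, taken as the 3 KD clones, and 1 for control, taken as the NT library, since the labels hold no other condition. The deposited p-value and q-value come from their Cuffdiff comparison, per the file headers. With 1 value per condition, no further test was made. For each symbol the row with the highest mean FPKM was kept (status OK or NOTEST), and the log2 fold was computed with a pseudocount of 1 FPKM, which understates changes of low genes. Read depth is not stated.

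The 10 genes, the 9 gene lists and the 5 marker lists were chosen with earlier results of these data known. Named genes were the 10, the marked genes and the 2 most abundant unmarked genes of each list except the marker lists, and the neighbours. Further genes (Taf7, Slc25a4, Slc25a5, Boll, D1Pas1, the other alpha-tubulins, PRC1.6 and methylation genes, Zbtb7a, Prdm1, Prdm14, Nanos2, Nanos3, the fibroblast genes and the further piRNA genes) were named after their values were seen. The genes listed beside Dnmt3l, Zbtb7a, Tuba4a and Mael in the order of the loci were likewise named after their values were seen. Row selection and folds were tested on simulated data. Alternatives were other pseudocounts, centring, row choices and call thresholds. Python 3.11.15, pandas 2.3.3 and matplotlib 3.10.9 were used. Promoter windows were taken from RefSeq (GRCm38.p6) and transcripts from GENCODE (GRCm38), and no coordinate was converted between builds.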

Additional observations from a re-analysis of the deposited data

How the results depend on the processing

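Across the 61 alternative values of the log2 folds of the 10 genes, all kept their direction. Most could not have changed it. A pseudocount cannot reverse a direction, and with 1 row per gene and no other symbol the row choices return the same value. Only centring and the sum of Tuba3a and Tuba3b could have reversed a direction. In 3 of the 61 values the KD to NT ratio that the log2 fold stands for changed by more than 1.5 times. These came from a pseudocount of 0.1 FPKM, which gave 3.55 for Ddx4, 1.75 for Asz1 and 1.66 for Tuba3b and raised the median of the 10 genes to 1.70, because a smaller pseudocount shrinks the folds of low genes less. Of the 10 genes 4 were higher in KD cells at a deposited q under 0.1 (background 1.40%) and 6 at a deposited p under 0.05 (background 6.10%), in place of 2. Without Tuba3a and Tuba3b, and likewise outside chromosomes 6, 10 and Y, 0 genes were called lower, as Tuba3a was the only one. Summing Tuba3a and Tuba3b, chosen after the data were seen, gave -1.22. Restricted to genes with at least 1 FPKM in either condition, the median of the 2-cell-state list was 2.21 in place of 0.62 and that of the paralogs -0.01 in place of 0.01. No paired analysis was possible because each condition has 1 deposited value, and for the same reason no library could be left out in turn. Depth limits the control values of Asz1, Tuba3b and Ddx4, by counting error alone.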

Other observations

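Of the 46 genes found of the testis and spermatid list, 27 were tested and 7 (Pgk2, Tnp1, Tnp2, Acrv1, Magea1, Pabpc2 and Cypt1) were listed at 0 in KD cells and in the NT control, and Prm1 and Prm2, which encode the protamines that pack sperm DNA, had 0.122 and 0.0505 FPKM in KD cells and were listed at 0 in the NT control. These were named after their values were seen, as were those that follow.

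Among testis copies of ribosomal protein genes, Rpl39l was at 11.8 FPKM in KD cells and at 29.3 FPKM in the NT control, a log2 fold of -1.24 that was not called (q = 0.281 in the authors' deposited table), while Rpl10l rose. Usp26, an X-linked testis deubiquitinase gene, was at 1.44 FPKM in KD cells and at 3.99 FPKM in the NT control (q = 0.0757 in the authors' deposited table). Dmrt1, a transcription factor gene of Sertoli cells and germ cells, was at 29.5 FPKM in KD cells and at 28.9 FPKM in the NT control.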
